A study of Mus musculus with 2 samples.

Results

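The genes that write, copy and remove methyl marks on DNA were described in granulocyte-monocyte progenitors of mouse bone marrow, the precursors of neutrophils and monocytes. The set holds 10 of 43346 annotated genes, picked by a rule on gene symbols, with earlier results of these data known, that uses no measured value: Dnmt1, Uhrf1, Dnmt3a, Dnmt3b, Tet1, Tet2, Tet3, Idh1, Idh2 and Tdg. All 10 were present in the deposited gene tables, and they own 75 of 103639 annotated transcripts. The study measured total RNA in 1 group of 2 libraries, each of primary cells from adult male C57BL/6J mice of 5 to 6 weeks, with no treatment or genetic change named in the labels and the health state given as unknown. Ribosomal RNA was depleted and each library was made from 100 ng of RNA. The labels give a size range without a unit, which ran from 200 to 712 in replicate 1 but up to 1000 in replicate 2. Both libraries are labelled as biological replicates but point to 1 donor record. The SD over 2 libraries therefore measures only the spread between them, which may be partly technical, and with 1 group there is no contrast to test.

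Methylation of cytosine in CpG dinucleotides is copied after DNA replication by DNMT1, which UHRF1 brings to hemimethylated DNA, and is laid down anew by DNMT3A and DNMT3B. TET1, TET2 and TET3 are dioxygenases that oxidise methylcytosine with 2-oxoglutarate as a cosubstrate, IDH1 and IDH2 make 2-oxoglutarate from isocitrate, and TDG excises the most oxidised products so that base excision repair can restore cytosine. In the blood system these genes are best known because DNMT3A, TET2, IDH1 and IDH2 are often mutated in human clonal haematopoiesis and myeloid leukaemia.

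The libraries held 49473848 expected counts in replicate 1 and 44260902 in replicate 2, where expected counts are reads assigned to genes with shared reads split by an estimator. Nuclear protein-coding genes held 83.8% and 86.9% of these counts but only 19.07% and 22.84% of the deposited TPM, a level per transcript length and library. Levels are therefore given as deposited TPM and, where stated, as TPM rescaled over the 21461 nuclear protein-coding genes alone. The cell label was checked against marker genes. All 4 genes of the surface phenotype (Kit, Cd34, Fcgr3 and Fcgr2b) and all 6 of the myeloid progenitor list reached 1 TPM in both libraries, the latter with summed levels of 4740 and 4370 TPM. Ly6a, which marks stem cells, had 0 counts in both libraries, which allows up to 0.0606 and 0.0678 CPM, the count scaled to library size (3 counts, counting error only). Markers of other cells were low: B cell genes summed to 0.0 and 0.02 TPM, T and NK cell genes to 0.33 and 0.23 TPM, and megakaryocyte and erythroid genes to 4.34 and 6.05 TPM, most of it from Itga2b. Of 5 mature neutrophil genes 4 reached 1 TPM in both libraries, and their sum was 22.6 and 28.4 TPM, led by Ltf. Of 5 stroma and endothelium genes only Pecam1 reached 1 TPM, while Col1a1 and Cdh5 had 0 counts in both libraries. The part of any admixed cells in the levels of the methylation genes was not tested, and in bulk RNA a larger number of cells of a type and more RNA per cell cannot be told apart.

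The sequences below carry the transcript findings on Dnmt3b, Dnmt1 and Uhrf1. The first 3 are the coding exons of the 860-codon Dnmt3b form that its leading transcript lacks, on the plus strand of chromosome 2 in mm10, at chr2:153670849-153670908 (exon 9), chr2:153683608-153683677 (exon 20) and chr2:153684359-153684477 (exon 21). They are followed by the 40 bases around the junction that keeps exon 20 and around the one that skips exons 20 and 21, with the first bases of the downstream exon in capitals. Exons are from GENCODE M21.
Dnmt3b coding exon 9: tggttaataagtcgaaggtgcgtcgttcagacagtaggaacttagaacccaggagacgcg
Dnmt3b coding exon 20: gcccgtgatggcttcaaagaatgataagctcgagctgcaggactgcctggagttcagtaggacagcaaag
Dnmt3b coding exon 21: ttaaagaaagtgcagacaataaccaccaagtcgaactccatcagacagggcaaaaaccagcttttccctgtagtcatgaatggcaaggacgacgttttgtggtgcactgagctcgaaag
Dnmt3b junction of exons 19 and 20: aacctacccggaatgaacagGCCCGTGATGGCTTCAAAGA
Dnmt3b junction of exons 19 and 22: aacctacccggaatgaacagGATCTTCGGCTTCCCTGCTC

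The next 4 are the 250 bases before the alternative starts of the maintenance genes, from RefSeq on GRCm38.p6, each written 5′ to 3′ on its gene's strand. The Dnmt1 windows lie on the minus strand, at chr9:20952980-20953229 before the somatic first exon and at chr9:20959889-20960138 before the upstream first exon, and their capitals mark CpG dinucleotides. The Uhrf1 windows lie on the plus strand, at chr17:56303087-56303336 and chr17:56304063-56304312, and their capitals mark 7-base words of the E2F type.
Dnmt1 before the somatic first exon: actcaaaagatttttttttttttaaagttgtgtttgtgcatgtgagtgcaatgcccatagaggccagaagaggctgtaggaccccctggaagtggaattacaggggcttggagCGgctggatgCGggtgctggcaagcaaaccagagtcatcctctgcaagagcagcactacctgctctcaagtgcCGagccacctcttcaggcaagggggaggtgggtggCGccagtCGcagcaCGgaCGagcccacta
Dnmt1 before the upstream first exon: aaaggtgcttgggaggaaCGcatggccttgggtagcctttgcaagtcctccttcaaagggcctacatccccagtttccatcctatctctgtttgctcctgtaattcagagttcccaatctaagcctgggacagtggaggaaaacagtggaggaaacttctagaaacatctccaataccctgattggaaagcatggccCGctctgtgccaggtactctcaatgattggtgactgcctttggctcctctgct
Uhrf1 before the upstream start: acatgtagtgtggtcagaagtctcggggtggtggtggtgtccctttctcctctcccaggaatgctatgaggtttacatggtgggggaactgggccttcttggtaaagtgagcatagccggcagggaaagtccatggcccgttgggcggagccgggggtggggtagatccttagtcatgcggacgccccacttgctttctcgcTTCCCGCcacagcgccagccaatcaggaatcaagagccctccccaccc
Uhrf1 before the downstream start: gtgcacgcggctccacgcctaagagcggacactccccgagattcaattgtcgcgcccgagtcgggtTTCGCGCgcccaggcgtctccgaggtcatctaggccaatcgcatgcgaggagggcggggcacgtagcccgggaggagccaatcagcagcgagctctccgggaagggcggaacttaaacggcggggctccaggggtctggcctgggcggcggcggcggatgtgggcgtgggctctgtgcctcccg

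RNA of every one of the 10 genes was detected, and the genes that copy methylation stood well above those that lay it down or oxidise it. All 10 genes reached 1 TPM in both libraries, against 40.8% of the 21461 nuclear protein-coding genes. At 10 TPM in both libraries there were 5 of 10, namely Idh2, Dnmt1, Idh1, Uhrf1 and Tdg, against 14.3%. The median level of the 10 genes was 13.1 TPM in replicate 1 and 15.0 TPM in replicate 2, beside 0.17 and 0.20 TPM over all nuclear protein-coding genes and 4.08 and 4.78 TPM over the 11637 of them at or above 0.1 TPM in either library. By mean TPM the order was Idh2, Dnmt1, Idh1, Uhrf1, Tdg, Tet2, Dnmt3a, Dnmt3b, Tet3 and Tet1. Neighbours in this order were taken as separate where the lower library of the higher gene exceeded the higher library of the lower gene. On deposited TPM 3 neighbouring pairs did not differ beyond their spread: Dnmt1 and Idh1, Dnmt3a and Dnmt3b, and Dnmt3b and Tet3. On rescaled TPM only Dnmt3b and Tet3 were not separate, and these exchanged places between the libraries. The plot of levels in each library shows both scales.

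**Figure D1:**
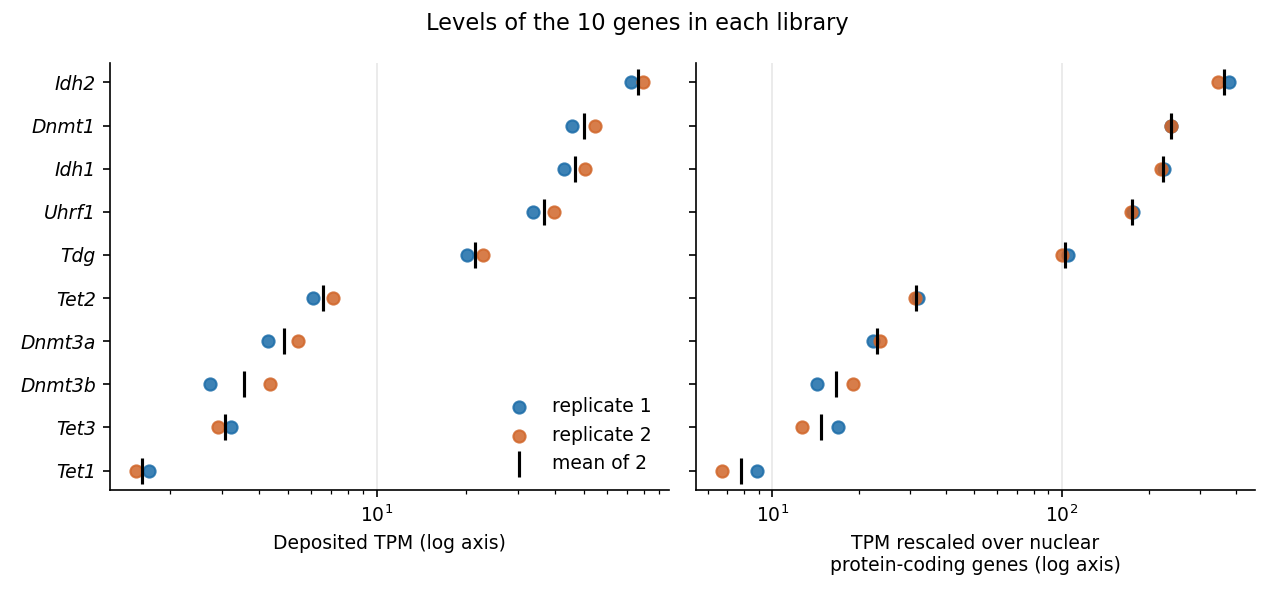
Level of each of the 10 genes in replicate 1 (blue) and replicate 2 (orange), with the mean of 2 libraries as a black bar, as deposited TPM (left) and as TPM rescaled over nuclear protein-coding genes (right), both on log axes. Idh2, Dnmt1, Idh1, Uhrf1 and Tdg lie above 10 TPM on the left, and the points of Dnmt3b and Tet3 overlap on both scales.

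Maintenance of methylation was represented by a pair of abundant RNAs, with Dnmt1 above Uhrf1 in each library. Dnmt1 (ENSMUSG00000004099, chr9:20907209-20959888, minus strand, mm10), the maintenance methyltransferase gene, had 45.55 and 54.41 TPM in replicates 1 and 2, a mean of 49.98 TPM ± 6.26 (SD, n = 2). The deposited credibility intervals, which surround the posterior mean and cover the estimator's uncertainty only, ran from 44.6 to 45.5 TPM and from 53.2 to 54.4 TPM. Rescaled over protein-coding genes, its levels were 238.9 and 238.2 TPM, so on that scale the libraries were almost equal. Dnmt1 ranked 630 among 21461 nuclear protein-coding genes. Uhrf1 (ENSMUSG00000001228, chr17:56303321-56323486, plus strand) encodes the protein that reads hemimethylated CpG and recruits DNMT1. It was at 33.68 and 39.65 TPM, a mean of 36.66 TPM ± 4.22, and at 176.6 and 173.6 TPM after rescaling. Some of its reads were split with other features, since its expected counts of 16051.42 and 13647.93 were fractional. Dnmt1 exceeded Uhrf1 by 0.43 and 0.46 on the log2(TPM + 0.1) scale in replicates 1 and 2, a mean of 0.45 ± 0.01 (SD, n = 2), or 1.36-fold.

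Each of the maintenance genes had a pair of main transcription starts by the deposited transcript estimates. For Dnmt1, the transcript with the somatic first exon (Dnmt1-201, 1620 codons) was at 25.73 and 35.2 TPM, which is 56.5% and 64.7% of the gene. The transcript with the upstream first exon (Dnmt1-202, 1501 codons) was at 19.5 and 18.6 TPM, or 42.82% and 34.19%. The credibility intervals of this transcript ran from 18.3 to 20.3 TPM and from 17.2 to 19.5 TPM, far from 0 in both libraries. An upstream first exon of Dnmt1 is known from mouse oocytes, where its transcript yields a protein with a shorter amino end. The oocyte and germ cell genes Zp3, Dazl and Ddx4 had 0 counts in both libraries. The transcripts share all but their 5′ ends, so the split rests on reads over those ends, and no junction counts were analysed here. The RefSeq window before the somatic first exon held 12 CpG in 300 bases at 57.0% GC. The one before the upstream first exon held 2 CpG at 51.3% GC, and the capitals printed above show both for 250 bases. Another window, before a start with 0.68% and 1.12% of the gene's TPM, held 33 CpG at 69.7% GC. It covers the start codon of Dnmt1-201.

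For Uhrf1 the larger class of transcripts was not the same in each library. Transcripts from the upstream start held 65.94% of the gene's TPM in replicate 1 and 36.55% in replicate 2, and those from the downstream start 32.63% and 57.66%. The leading transcripts of the classes, Uhrf1-201 and Uhrf1-204, both encode 782 codons from the same start codon. Uhrf1-201 was at 21.8 and 11.14 TPM, with credibility intervals of 19.9 to 22.8 TPM and 9.45 to 12.9 TPM. Uhrf1-204 was at 10.16 and 22.86 TPM, with intervals of 8.76 to 11.5 TPM and 21.1 to 23.8 TPM. The intervals of the libraries did not overlap for either transcript, although the level of the whole gene differed little. These intervals cover the estimator's uncertainty only, and no junction counts were analysed here. Whether use of the starts differed between the libraries was not tested. The starts lie in windows with 12 and 33 CpG in 300 bases, for the upstream and the downstream start.

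Words of the E2F type, the motif of factors that act on genes of DNA replication, were searched in the promoter windows (the words TTGGCGC as well as TTCCCGC, the variant TTCGCGC and lastly TTGCCGC, on both strands, with overlapping matches allowed). RefSeq windows matched all 10 genes, in 16 windows of 300 bases. A word was present in 3 of the 16 windows, both windows of Uhrf1 and 1 of the 3 windows of Dnmt1, against 3145 of 32851 windows (9.57%) over all genes in the table. The upstream Uhrf1 window held TTCCCGC and the downstream one TTCGCGC. The Dnmt1 window with matches held 3, and lies downstream of the somatic window printed above. It is the window before the start with 0.68% and 1.12% of the gene's TPM, and covers the start codon of Dnmt1-201. The windows before the somatic and the upstream first exon, the main starts of Dnmt1, held 0 words. CpG dinucleotides were frequent in the windows of the 10 genes, with a median of 23.0 in 300 bases against 7.0 (quartiles 3.0 to 20.0) over all windows. Tet2 had the most, at 57, and the upstream Dnmt1 window the fewest. A match describes letters only and is not evidence of binding.

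The de novo methyltransferases were present at far lower levels than Dnmt1. Dnmt3a (ENSMUSG00000020661, chr12:3806007-3914443, plus strand) was at 4.27 and 5.40 TPM, a mean of 4.835 TPM ± 0.799 (SD, n = 2), and at 22.4 and 23.64 TPM after rescaling. Dnmt1 exceeded Dnmt3a by 3.38 and 3.31 on the log2(TPM + 0.1) scale, a mean of 3.35 ± 0.05, or 10.2-fold. Dnmt3b (ENSMUSG00000027478, chr2:153649450-153687730, plus strand) was at 2.72 and 4.36 TPM, a mean of 3.54 TPM ± 1.16, the widest relative spread of the 10 genes on this scale. Its rescaled levels were 14.27 and 19.09 TPM, so replicate 2 was higher on both scales. Dnmt3a exceeded Dnmt3b by 0.63 in replicate 1 and 0.30 in replicate 2 on the log2(TPM + 0.1) scale, a mean of 0.47 ± 0.23. Over complete coding transcripts alone the difference was 0.59 and 0.03, so it was nearly absent in replicate 2. The order was the same within each library. Across libraries the levels overlapped on deposited TPM but not after rescaling, where the lower Dnmt3a value was 22.4 TPM and the higher Dnmt3b value 19.09 TPM. The antisense genes Dnmt3aos and Dnmt3bos and the pseudogene Dnmt3a-ps1 had 0 counts in both libraries.

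Dnmt3a RNA was divided between the long coding form, which starts near the 5′ end of the gene, and the short form, which starts from an internal promoter and encodes a protein without the first residues of the long one. By annotated start codon, 2 transcripts of 908 codons were long, 2 of 689 codons were short and the other 14 had no complete coding sequence. The long form held 47.37% and 47.18% of the gene's TPM in replicates 1 and 2. The short form held 49.79% and 35.27%, a mean of 42.5% ± 10.3 (SD, n = 2). Transcripts without a complete coding sequence held 2.83% and 17.55% of TPM, on 28.23 and 62.21 counts. Of the TPM of complete coding transcripts alone, the short form held 51.25% and 42.78%. By expected counts, which weigh longer transcripts more, the short form held 29.69% and 14.03%. Which transcript carried each form differed between the libraries. The long form was given mostly to Dnmt3a-218 in replicate 1 (1.74 TPM, against 0.28 TPM for Dnmt3a-201), and wholly to Dnmt3a-201 in replicate 2 (2.55 TPM, with Dnmt3a-218 listed at 0). For the short form, Dnmt3a-203 was at 0.95 TPM in replicate 1 and listed at 0 in replicate 2, while Dnmt3a-205 was at 1.18 and 1.90 TPM. The summed classes were thus steadier than the single transcripts for the long form. The window before the internal start held 18 CpG in 300 bases, and the windows before the long starts 46 and 47.

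By the transcript estimates, most Dnmt3b RNA lacked exons of the catalytic part. The leading transcript, Dnmt3b-206, had 1.96 and 3.35 TPM in replicates 1 and 2, or 71.99% and 76.80% of the gene. Its credibility intervals were 1.54 to 2.11 TPM and 2.90 to 3.38 TPM. It encodes 776 codons in 19 of the 22 coding exons of the 860-codon form and lacks exons 9, 20 and 21, whose sequences are printed above. Exons 20 and 21 together hold 189 bases, so their loss removes 63 codons and keeps the reading frame, and its exon 15 has 85 bases in place of 88. Forms of Dnmt3b without these catalytic exons are known in mouse as catalytically inactive. Transcripts that keep exons 20 and 21 held 28.01% and 23.19% of the gene's TPM, a mean of 25.6% ± 3.41 (SD, n = 2), and 27.06% and 22.11% of its expected counts. Their main member was Dnmt3b-207 (860 codons), at 0.54 and 0.86 TPM. The division between keeping and skipping the exons was thus alike in both libraries, within 5 percentage points on either scale. Of 12 annotated Dnmt3b transcripts 10 had a complete coding sequence, and 6 of these were listed at 0 TPM in both libraries, as the map of coding exons shows.

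**Figure D2:**
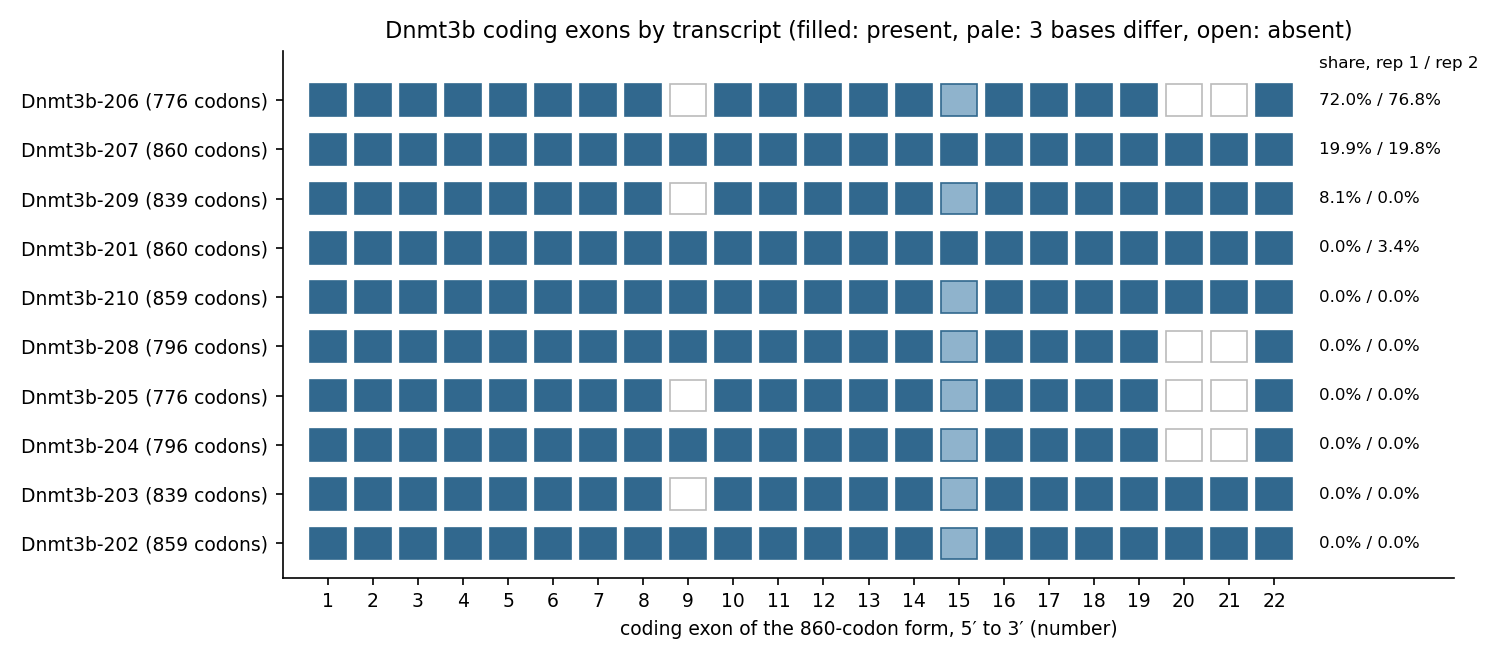
Coding exons of the 10 Dnmt3b transcripts with a complete coding sequence, numbered along the 860-codon form from 5′ to 3′, with filled squares for exons present, pale squares for exon 15 with 85 bases and open squares for exons absent. The numbers on the right are each transcript's percent of the gene's TPM in replicates 1 and 2, with 71.99% and 76.80% for Dnmt3b-206, which lacks exons 9, 20 and 21.

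Among the dioxygenase genes Tet2 was the highest, and the level of Tet1 depended on which transcripts were counted. Tet2 (ENSMUSG00000040943, chr3:133463679-133545139, minus strand) was at 6.09 and 7.09 TPM, a mean of 6.59 TPM ± 0.707 (SD, n = 2), and at 31.94 and 31.04 TPM after rescaling. Only 1 transcript of Tet2, of 1912 codons, was quantified, so no split between transcripts could be seen. Tet3 (ENSMUSG00000034832, chr6:83362373-83459084, minus strand) was at 3.22 and 2.90 TPM, a mean of 3.06 TPM ± 0.226, and at 16.89 and 12.7 TPM after rescaling. Tet3 minus Tet2 was -0.90 and -1.26 on the log2(TPM + 0.1) scale, a mean of -1.08 ± 0.26, so Tet2 was 2.11-fold higher. An antisense gene over Tet3, B230319C09Rik, had 1 and 35 counts, beside 4204 and 3081 for Tet3. Whether counting used the strand is not stated, so reads of a gene and its antisense partner may not be told apart. The transcript Tet3-202, which encodes 1668 codons without the amino-terminal CXXC domain that binds DNA, held 66.3% and 78.52% of Tet3 TPM. The form with that domain, Tet3-203 of 1803 codons, had 1.09 and 0.53 TPM in replicates 1 and 2, or 33.7% and 18.12%. By these estimates the transcript of the shorter coding form was the larger share of Tet3 RNA in both libraries. Tet3-202 is annotated at 10904 bases and Tet3-203 at 5944, although Tet3-203 has more codons. Reads over untranslated bases annotated only in Tet3-202 count for that transcript alone, and their part in the split was not tested.

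Tet1 (ENSMUSG00000047146, chr10:62804570-62908996, minus strand) was the lowest of the 10 genes, at 1.69 and 1.53 TPM, a mean of 1.61 TPM ± 0.113 (SD, n = 2). Most of that level lay outside complete coding transcripts. The noncoding Tet1-202 of 1505 bases was at 0.57 and 0.91 TPM, and the fragment Tet1-205 was at 0.59 TPM in replicate 1 and listed at 0 in replicate 2. Transcripts with a complete coding sequence held 0.52 and 0.61 TPM, which is 30.5% and 40.4% of the gene's TPM but 83.9% and 88.0% of its expected counts, since Tet1-201 (2007 codons) is 13986 bases long. Tet1-207, the transcript at the RefSeq promoter window of Tet1, was not among the 6 quantified, so its share could not be seen. Tet2 exceeded Tet1 by 1.79 and 2.14 on the log2(TPM + 0.1) scale over all transcripts, a mean of 1.97 ± 0.25, or 3.91-fold. Over complete coding transcripts alone the difference was 3.32 and 3.34 on the same scale. By either count Tet2 was above Tet3 and Tet3 above Tet1 in each library.

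**Figure D3:**
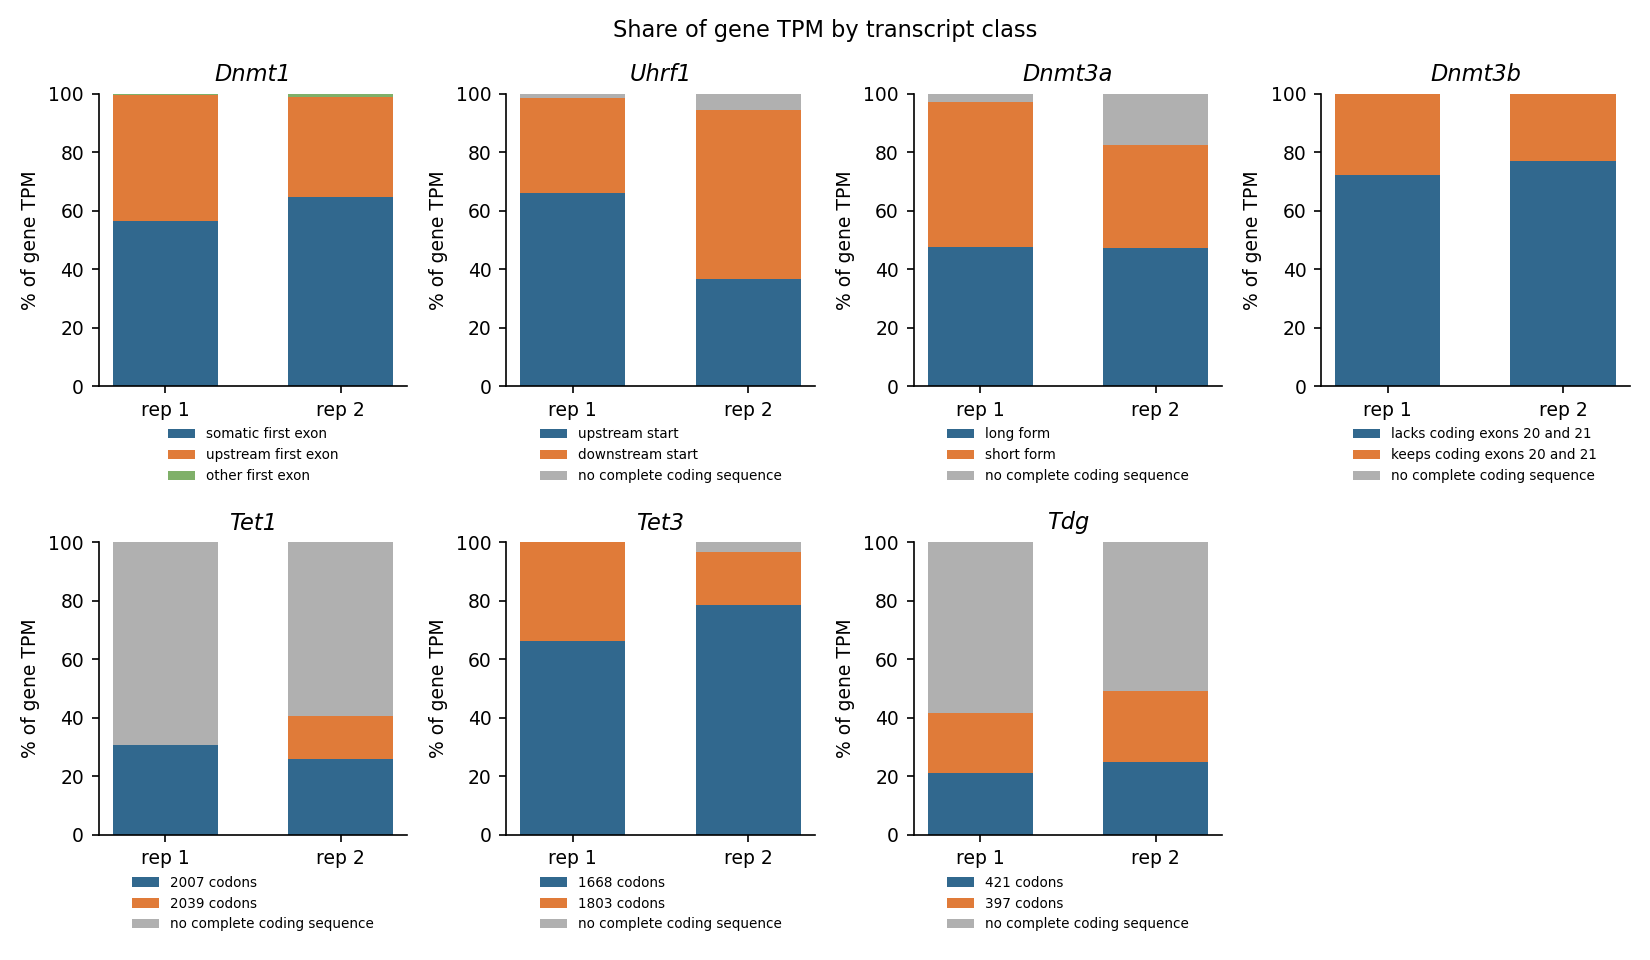
Percent of each gene's TPM held by its classes of transcripts in replicates 1 and 2, as stacked bars from 0 to 100, for the 7 genes with more than 1 class of note. The Uhrf1 classes exchange places between the libraries (65.94% and 36.55% for the upstream start), the Dnmt3b classes stay alike (71.99% and 76.81% without exons 20 and 21), and most Tet1 TPM lies in transcripts without a complete coding sequence.

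The isocitrate dehydrogenase genes were among the highest of the set. Idh2 (ENSMUSG00000030541, chr7:80094846-80115392, minus strand), which encodes the mitochondrial enzyme, was at 72.39 and 79.5 TPM, a mean of 75.94 TPM ± 5.03 (SD, n = 2). It ranked 399 among 21461 nuclear protein-coding genes. Idh1 (ENSMUSG00000025950, chr1:65158616-65186500, minus strand), which encodes the cytosolic and peroxisomal enzyme, was at 42.98 and 50.48 TPM, a mean of 46.73 TPM ± 5.30. The levels of Idh2 lay above those of Idh1 in every library. Idh1 minus Idh2 was -0.75 and -0.65 on the log2(TPM + 0.1) scale, a mean of -0.70 ± 0.07, so Idh2 was 1.63-fold higher. After rescaling Idh2 was at 379.7 and 348.1 TPM and Idh1 at 225.4 and 221.0 TPM. A single transcript led each gene, Idh1-201 (414 codons) with a mean of 99.96% and the 452-codon Idh2 transcript with 97.23% and 95.22%.

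Tdg (ENSMUSG00000034674, chr10:82629828-82650799, plus strand), the glycosylase gene, was at 20.08 and 22.9 TPM, a mean of 21.49 TPM ± 1.99 (SD, n = 2), and at 105.3 and 100.3 TPM after rescaling. It stood below the maintenance genes and above all 3 Tet genes in both libraries. The largest share of its TPM went to Tdg-210, an incomplete coding transcript of 971 bases, with 11.06 and 10.76 TPM. The complete coding forms Tdg-201 (397 codons) and Tdg-208 (421 codons) were at nearly equal levels, 4.13 and 4.24 TPM in replicate 1 and 5.59 and 5.68 TPM in replicate 2. Together they held 41.6% and 49.2% of the gene's TPM, and 73.5% and 79.6% of its expected counts. Tdg counts were fractional, so some reads were split with other features. The processed pseudogene Tdg-ps was at 81.81 and 18.8 counts, beside 5013.2 and 4774.19 for Tdg, and the antisense neighbour Glt8d2 at 100 and 84.

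Between the libraries Dnmt3b and Tet3 were the furthest apart of the 10 genes, in opposite directions, and the other 8 differed little. Ratios of replicate 2 to replicate 1 were taken as log2 CPM, with libraries scaled by edgeR's TMM factors. The median absolute ratio was 0.0573 over the 10 genes, beside 0.181 over the 8192 protein-coding genes at a mean of 10 CPM or more, of which 5% lay below -0.51 and 5% above 0.47. Dnmt3b was higher in replicate 2 by 0.41 and was the only one of the 10 above 0.25, against 17.1% of genes. Tet3 was at -0.33 and was the only one lower by more than 0.25, against 18.7%. None of the 10 passed 0.5 in either direction, against 4.35% higher and 5.19% lower. The 10 genes had mean levels from 24.7 to 694 CPM, and the 8192 genes were not matched to them in level. Counting error is larger at low counts, and its part in the smaller spread of the 10 was not tested. The ratio followed the GC content of the leading transcript over all genes, with medians of 0.16 among the genes of lowest GC and -0.17 among those of highest GC, with the genes divided into 5 equal classes. Dnmt3b (53.3% GC) and Tet3 (53.4% GC) lay in the same class, with a median of -0.09, and the part of GC in their ratios was not tested. The ratio of Tet1 was -0.05 by CPM but -0.40 by rescaled TPM, beside an effective length estimated at 5023 bases in replicate 1 and 6392 in replicate 2. These ratios set 1 library against 1 and carry no test.

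**Figure D4:**
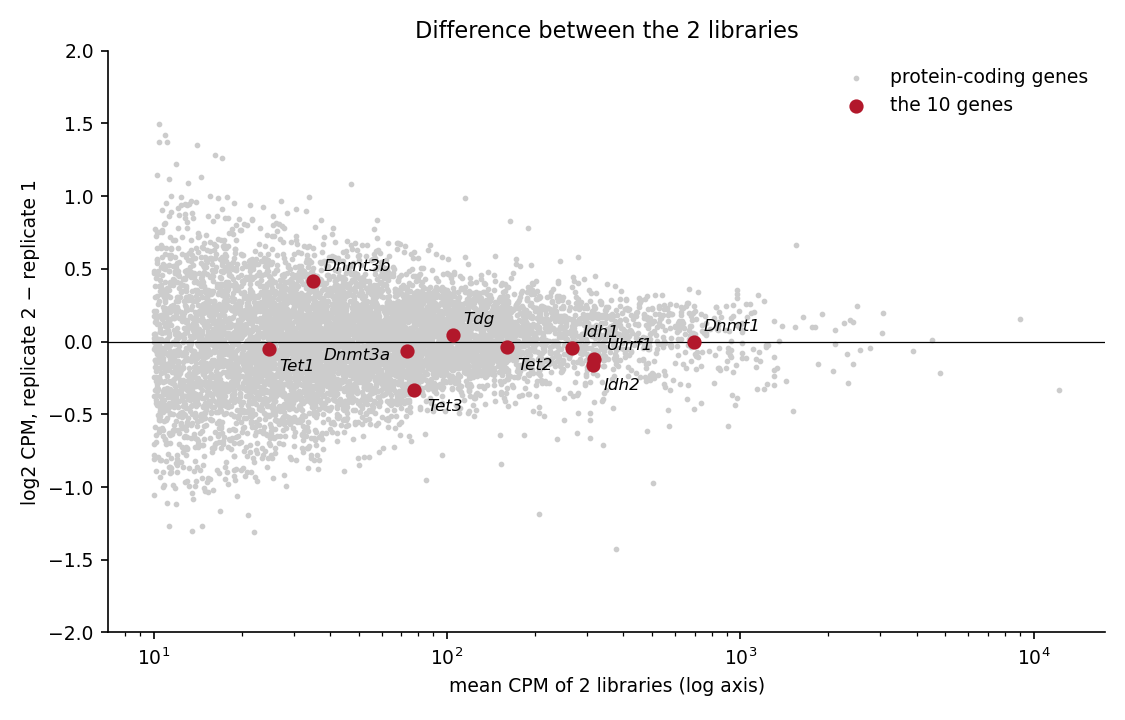
Difference of replicate 2 minus replicate 1 in log2 CPM against mean CPM (log axis) for 8192 protein-coding genes (grey) and the 10 genes (red). Dnmt3b at 0.41 and Tet3 at -0.33 are the furthest from 0, and the other 8 lie between -0.16 and 0.05.

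The partners of these enzymes were described by lists, each read against the 40.8% of protein-coding genes at 1 TPM in both libraries. Of 11 partners of the methyltransferases, 8 reached 1 TPM in both libraries, with medians of 25.2 and 29.6 TPM. The highest was Pcna, the replication clamp that binds DNMT1, at 124.88 and 158.08 TPM. The 3 below 1 TPM act in germ cells and the early embryo. Dnmt3l, the cofactor of de novo methylation in germ cells, was at 0.13 and 0.39 TPM, Zfp57, an imprinting zinc finger gene, was at 0.11 TPM in replicate 1 with 0 counts in replicate 2, and Dppa3 had 0 counts in both. All 12 genes of the S phase list reached 1 TPM, with medians of 47.3 and 57.4 TPM, from Gins2 at 9.34 and 9.94 TPM up to Pcna.

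Genes of the methyl-CpG reader list were present at lower levels. Of 8 listed genes, 7 were at or above 1 TPM in each library, with medians of 4.46 and 6.02 TPM. Mbd3 was highest of the list by the mean, at 18.49 and 24.85 TPM, but below Mbd2 (20.2 TPM) in replicate 1. Mbd2 was at 23.01 TPM in replicate 2. Inclusion in the list does not show that each protein binds methylated CpG. Zbtb4 was lowest at 0.05 and 0.10 TPM. Of 7 CXXC genes and TET partners 6 reached 1 TPM, with medians of 8.91 and 12.2 TPM. Ogt, whose product adds N-acetylglucosamine to proteins and binds TET enzymes, was highest by the mean, at 11.1 and 15.61 TPM, but in replicate 1 below Dcaf1 (12.2 TPM) and Kdm2b (11.5 TPM). Cxxc4, which encodes a CXXC protein that binds TET2, had 0 counts in both libraries.

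The repair and deamination genes covered a wide range of levels, from 0 counts in both libraries up to Apex1. Of 10 base excision repair genes 7 reached 1 TPM, with medians of 5.44 and 6.81 TPM and Apex1, the abasic endonuclease gene, highest at 46.6 and 57.38 TPM. Among the glycosylase genes Smug1 was at 0.35 and 0.92 TPM and Neil1 at 0.17 and 0.45 TPM, and Neil2 had 0 counts in both libraries. Of 7 deaminase and Gadd45 genes 4 reached 1 TPM in both libraries. Apobec3, a cytidine deaminase gene that restricts retroviruses, was highest at 31.68 and 37.02 TPM. Apobec2 had 0 counts in both libraries, and Gadd45g was at 1.38 and 0.78 TPM. Tdg, at 20.08 and 22.9 TPM, lay above the median of both lists.

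Genes listed for 2-oxoglutarate metabolism and the methyl donor cycle were present almost without exception. The former list also holds genes of later steps of the same cycle, such as Sdha, whose enzymes do not act on 2-oxoglutarate itself. All 14 of its genes reached 1 TPM in both libraries, with medians of 22.9 and 28.3 TPM. Sdha, a subunit of succinate dehydrogenase, was highest at 75.74 and 69.39 TPM, and D2hgdh, whose enzyme clears D-2-hydroxyglutarate, lowest by the mean at 2.72 and 4.67 TPM. Idh2 was above every gene of this list in replicate 2 and below only Sdha in replicate 1. Of 8 genes of the methyl donor cycle 7 reached 1 TPM, with medians of 20.2 and 25.2 TPM. Mat2a, which makes S-adenosylmethionine, was highest at 32.04 and 43.11 TPM.

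**Figure D5:**
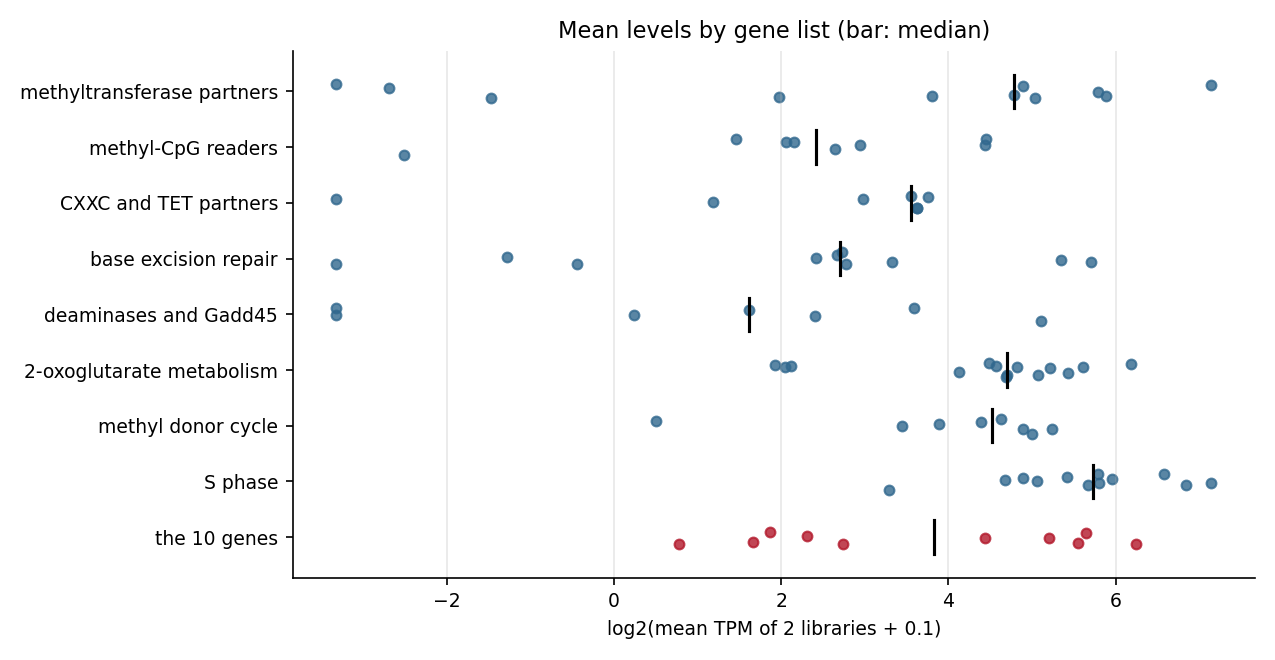
Mean level over 2 libraries, as log2(mean TPM + 0.1), of every gene in the 8 lists (blue) and of the 10 genes (red), with a black bar at each median. Points at the left edge are genes with 0 counts in both libraries, and the S phase, 2-oxoglutarate and methyl donor lists hold no gene with a mean below 1 TPM.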

How the data were processed

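Total RNA of 2 libraries of 1 group was analysed from tables that the authors deposited. The deposited gene and transcript tables hold expected counts, TPM, FPKM, posterior mean counts and posterior mean TPM with credibility bounds, and each transcript's percent of its gene. Assembly mm10 and GENCODE M4 are named in the deposited metadata. No aligner or quantifier is named in the sources used here. The deposited length columns are not a score: the authors computed them before deposit, and they were used as deposited, as lengths in bases. Symbols, coordinates and coding sequences came from GENCODE M21 on the same assembly by identifier, which matched 42462 of 43346 genes and left 884 without a name. For edgeR 4.0.16 (R 4.3.3) the expected counts were made whole by rounding, with scaling factors of 0.985 and 1.02 and a prior count of 2, on 12855 genes kept by filterByExpr. Differences between genes are log2(TPM + 0.1), which understates those of low genes. Transcripts were classed by annotated start codon, first exon or coding exons, and named where their mean share was at least 10%. Of each list the highest, the lowest and those below 1 TPM are named, apart from 2 genes not reported here. The members and lists were chosen with earlier results of these data known. Alternatives tried were another pseudocount, FPKM, posterior means, rescaled TPM, complete coding transcripts alone, other thresholds, no filter, DESeq2 1.42.0 size factors and each library left out. Intervals and floors cover counting or estimation error only.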

Additional observations from a re-analysis of the deposited data

How the results depend on the processing

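No paired analysis was possible because the series has 1 group. Of 86 alternative values over 14 results, 69 stayed within the limit set for their kind, 17 moved past it and 0 reversed. The limit was 1 SD between the libraries for differences, levels and shares, 1.5 times for counts of genes, and the median absolute ratio of the 8192 genes for the ratio between libraries. With SDs over 2 libraries as small as 0.01, a move can be slight. Leaving out 1 of 2 libraries cannot move a difference, level or share past 1 SD, apart from rounding. Within a library FPKM and rescaled TPM are multiples of TPM, so differences between genes could hardly change on them. Shares and counts of genes cannot reverse. The tally is therefore no measure of robustness. On posterior mean TPM, Dnmt1 minus Dnmt3a was 3.22 and Dnmt1 minus Uhrf1 was 0.44 (log2). With a pseudocount of 1 these were 3.13 and 0.44, and Tet2 minus Tet1 was 1.54. Over complete coding transcripts alone the 3 differences were 3.5, 0.5 and 3.33, and the median level of the 10 genes was 3.02 in place of 3.58, with 9 of 10 genes at 1 TPM in both libraries. That median was 5.01 on FPKM and 5.83 on rescaled TPM, which are other scales. At 5 TPM 6 of 10 genes passed in both libraries, and at 10 TPM 5. The short form of Dnmt3a held 21.9% of the expected counts in place of 42.5% of TPM, and the shorter coding transcript of Tet3 83.4% in place of 72.4%. Leaving out each library gave 3.31 to 3.38 for Dnmt1 minus Dnmt3a, 0.43 to 0.46 for Dnmt1 minus Uhrf1 and 35.3% to 49.8% for the Dnmt3a short form. The cause of these moves beyond the scales themselves was not tested. With 1 donor record and 2 libraries, differences between mice are not measured, and shares of single transcripts rest on an estimator.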
